A study of Mus musculus with 12 samples.

Results

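The 10 genes described here encode proteins that take lipid into a myeloid cell, bind it inside, store it in droplets or export it: Cd36, Msr1, Olr1, Slc27a4, Lpl, Fabp4, Fabp5, Plin2, Abca1 and Abcg1. They were chosen by name, with earlier results of these data known, and each symbol was read from all 12 libraries, out of 24346 gene symbols per library. Expression was measured by RNA-seq in myeloid-derived suppressor cells (MDSCs), immature myeloid cells that build up in tumors and restrain T cells. The cells came from Hepa 1-6 tumors, a mouse hepatoma line placed in the liver of wild-type female C57BL/6J mice aged 6 to 8 weeks. Monocytic MDSCs (M-MDSCs; CD11b+, Ly-6C high, Ly-6G-) and polymorphonuclear MDSCs (PMN-MDSCs; CD11b+, Ly-6C intermediate, Ly-6G+) were sorted by flow cytometry.

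Each subset was represented by 2 libraries from each of 3 treatments: vehicle, MS-275 or CXD101, which gave 6 groups. Both drugs are inhibitors of the class I histone deacetylases HDAC1, HDAC2 and HDAC3. Per the methods for M-MDSCs, MS-275 or CXD101 was injected into the peritoneum at 5 mg/kg every day for 10 days from day 10 after implantation, and tumors were taken on day 21. All groups carried the tumor, vehicle mice were given the carrier solution, and only mice with more than 20% MDSCs in blood on day 10 had been entered. The methods do not describe the PMN-MDSC libraries, so the same schedule is assumed for them. The 2 libraries of an M-MDSC group are called biological replicates; nothing says that the PMN-MDSC libraries came from separate animals, and p-values there may measure technical spread alone.

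Macrophages and related myeloid cells take up modified lipoproteins through scavenger receptors and take up fatty acids that lipoprotein lipase frees from triglyceride. Fatty-acid-binding proteins carry the fatty acids to sites of esterification, storage or oxidation, and perilipins coat the droplets that hold the ester. ABC transporters return cholesterol to lipoproteins outside the cell, and nuclear receptors that sense oxysterols or fatty acids drive several of these genes. In tumors, lipid loading of MDSCs has been linked to their suppressive activity.

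On the mm10 build, which the submitters' notes name, the GENCODE annotation of the same assembly placed the uptake genes Cd36 at chr5:17781690-17888801 (minus strand), Msr1 at chr8:39581685-39642673 (minus strand), Olr1 at chr6:129485244-129507165 (minus strand) and Slc27a4 at chr2:29802634-29817522 (plus strand). Lpl lies at chr8:68880491-68907448 (plus strand), and the neighbors Fabp4 and Fabp5 lie at chr3:10204088-10208576 (minus strand) and chr3:10012548-10016607 (plus strand). Plin2 was placed at chr4:86648386-86670060 (minus strand), Abca1 at chr4:53030787-53159895 (minus strand) and Abcg1 at chr17:31057675-31117988 (plus strand). No gene annotated on the opposite strand overlapped any of the 10. On the same strand, Gm25447 overlapped Abcg1, and no other overlap was found. Stretches as long as a read (101 bases) were shared with other annotated genes for 8.91% of the Fabp5 transcript, with Gm14328 and Gm6166, so the Fabp5 value carries that uncertainty. The shared part was 0.168% for Plin2, with Gm12551, and 0 for the other 8 genes.

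RefSeq start-site windows (250 bases before and 50 from the start onward, build GRCm38.p6) were at hand for 5 of the 10 genes: Cd36, Olr1, Plin2, Abca1 and Slc27a4. The windows of Olr1, Plin2 and Slc27a4, each of which rose in at least 1 comparison, and of Cd36 and Abca1, which fell in all 4 comparisons with vehicle, are shown 5′ to 3′ so that the regulatory letters near each start can be read beside the expression values. The Cd36 window lies inside the annotated gene, away from its outermost start near chr5:17888801. Which Cd36 start these cells use was not examined. Capitals mark every match, on either strand, to any of 10 motifs searched. The motifs were chosen by hand and matched exactly, with N for any base. Core promoter letters were the GC box (letters GGGCGG) and the TATA box (letters TATAAA). Factor motifs were the E-box (letters CACGTG), the nuclear receptor half-site (letters AGGTCA), the AP-1 site (letters TGANTCA), the PU.1 site (letters GAGGAAG), the C/EBP site (letters TTGCNNAA), the CRE (letters TGACGTCA), and the direct repeats of the half-site with 1 base (DR1) or 4 bases (DR4) between. Both repeats contain the half-site.
Olr1, chr6:129507116-129507415 (minus strand): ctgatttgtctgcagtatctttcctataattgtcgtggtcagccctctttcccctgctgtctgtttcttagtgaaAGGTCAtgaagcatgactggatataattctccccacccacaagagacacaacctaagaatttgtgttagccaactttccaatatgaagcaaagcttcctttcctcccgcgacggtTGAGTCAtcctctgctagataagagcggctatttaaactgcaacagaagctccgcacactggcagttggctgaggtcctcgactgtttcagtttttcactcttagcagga
Slc27a4, chr2:29802384-29802683 (plus strand): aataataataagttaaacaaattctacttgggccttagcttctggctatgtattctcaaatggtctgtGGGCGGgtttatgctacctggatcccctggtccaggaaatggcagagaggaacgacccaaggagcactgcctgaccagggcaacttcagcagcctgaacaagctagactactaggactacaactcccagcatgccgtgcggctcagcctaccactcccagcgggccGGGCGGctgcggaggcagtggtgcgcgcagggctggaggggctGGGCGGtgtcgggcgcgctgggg
Plin2, chr4:86670010-86670309 (minus strand): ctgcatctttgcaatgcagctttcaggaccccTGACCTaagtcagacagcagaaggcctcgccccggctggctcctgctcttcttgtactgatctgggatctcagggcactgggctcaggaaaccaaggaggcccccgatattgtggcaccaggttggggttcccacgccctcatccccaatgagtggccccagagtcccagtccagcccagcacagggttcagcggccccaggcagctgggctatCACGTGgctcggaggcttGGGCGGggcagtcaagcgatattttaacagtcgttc
Cd36, chr5:17835847-17836146 (minus strand): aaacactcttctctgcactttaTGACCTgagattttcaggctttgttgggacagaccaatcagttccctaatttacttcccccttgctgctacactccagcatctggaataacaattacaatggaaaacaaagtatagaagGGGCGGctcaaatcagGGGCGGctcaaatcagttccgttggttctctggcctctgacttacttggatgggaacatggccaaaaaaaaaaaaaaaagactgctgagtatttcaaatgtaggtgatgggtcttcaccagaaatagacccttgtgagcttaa
Abca1, chr4:53159846-53160145 (minus strand): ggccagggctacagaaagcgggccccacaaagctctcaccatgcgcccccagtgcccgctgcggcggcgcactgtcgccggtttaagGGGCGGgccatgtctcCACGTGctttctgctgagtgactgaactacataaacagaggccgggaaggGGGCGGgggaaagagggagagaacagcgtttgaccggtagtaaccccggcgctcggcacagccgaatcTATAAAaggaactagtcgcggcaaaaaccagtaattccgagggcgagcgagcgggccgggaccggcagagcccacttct

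The Olr1 window held an AP-1 match 60 bases before the start and a half-site 175 bases before it. An E-box lay 4 bases before the Plin2 start, overlapping it, and 147 bases before the Abca1 start. Half-sites were also found 218 bases before the Plin2 start and 228 bases before the Cd36 start. Abca1 alone of the 5 held a TATA box, 29 bases before its start, and a GC box was found in Cd36, Plin2, Abca1 and Slc27a4. The other 5 motifs matched none of the 5 windows, which says only that those letters are absent from these 300 bases. Among all 32851 windows, the E-box was present in 7.15%, the half-site in 16.3%, AP-1 in 7.81%, the GC box in 35.7% and the TATA box in 13.6%. PU.1, C/EBP, CRE, DR1 and DR4 were present in 13.6%, 10.8%, 1.79%, 0.0396% and 0.0152% of them. These matches describe the sequence and were not tested against expression.

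The deposited values are FPKM (fragments per kilobase of transcript per unit of sequencing depth, as scaled by the authors), with sums per library of 564078 to 596407 for M-MDSCs and 656932 to 860841 for PMN-MDSCs. Depth, judged by the spacing of the smallest values, was about 8128305 to 10715193 reads for M-MDSCs and 6760830 to 8128305 for PMN-MDSCs. Replicates correlated with r of 0.988 to 0.991 across genes. PMN-MDSC libraries held far more Csf3r, the granulocyte growth factor receptor, at 214 and 237 FPKM under vehicle against 8.75 and 10.5 in M-MDSCs. Ccr2, the monocyte chemokine receptor, was at 147 and 137 FPKM in M-MDSCs and 40.7 and 35.7 in PMN-MDSCs. The monocyte and macrophage gene Csf1r was nevertheless higher in the PMN-MDSC libraries, with 159.9 and 145 FPKM against 123 and 123 in M-MDSCs and no overlap. Ly6g was looked up for the neutrophil marker list but could not be matched to a symbol in the data, as written or by an older symbol. Its RNA was therefore not analysed here.

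Under vehicle, the 10 genes spanned more than 2 orders of magnitude in FPKM, a scale per transcript length on which genes can be compared. In M-MDSCs the highest was Lpl, at 549.8 and 549 FPKM, followed by Fabp5 at 507 and 509.9 and Plin2 at 272 and 289. The replicates of these 3 genes did not overlap with each other. Msr1 (50.7 and 46.3), Abcg1 (38.8 and 41.7) and Fabp4 (31.7 and 30.8) formed a middle range, ahead of Slc27a4 (13.8 and 13) and Cd36 (4.11 and 3.63). Olr1 (1.61 and 1.74) and Abca1 (1.67 and 1.31) were lowest and overlapped.

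The order in PMN-MDSCs differed. Plin2 (306 and 294 FPKM), Fabp5 (317 and 273) and Lpl (286 and 281) were again the 3 highest, and the Fabp5 replicates overlapped with those of each of the others. Abcg1 (55.9 and 54.0) and Msr1 (57.4 and 48.0) also overlapped, and Slc27a4 (41.4 and 40.4) stood above Fabp4 (23.3 and 20.8). Olr1 came next at 15 and 15.8, then Cd36 (5.52 and 6.18) and Abca1 (1.5 and 1.08).

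Between the subsets under vehicle, 2 of the 10 genes were called higher and 2 lower in PMN-MDSCs, against 17.2% and 16.8% of the 11662 genes tested (34.0% in either direction). A gene was called where limma on log2(FPKM + 1) gave a Benjamini-Hochberg adjusted p under 0.05 and the fold change on that scale exceeded 1.5. By the adjusted p alone, 6 of the 10 passed, against 62.0% of all genes. Adding 1 FPKM understates the change of genes near or below 1 FPKM. Olr1, the lectin-like receptor for oxidized LDL, was 9.21 times the M-MDSC level in mean FPKM, a log2 difference of 2.62 (SE 0.098, adjusted p = 8.34e-09) by limma. For Slc27a4, an acyl-CoA synthetase and transporter of long-chain fatty acids, the log2 difference was 1.54 (SE 0.08, adjusted p = 7.09e-08) by limma. Lpl and Fabp5 were the genes called lower in PMN-MDSCs, with limma log2 differences of -0.95 (SE 0.061, adjusted p = 3.19e-07) and -0.79 (SE 0.075, adjusted p = 6.22e-06). Plin2 showed no called difference, and its interval ran from -0.02 to 0.22. Fewer cells of a kind in the sort and less RNA per cell cannot be told apart in bulk libraries such as these.

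**Figure D1:**
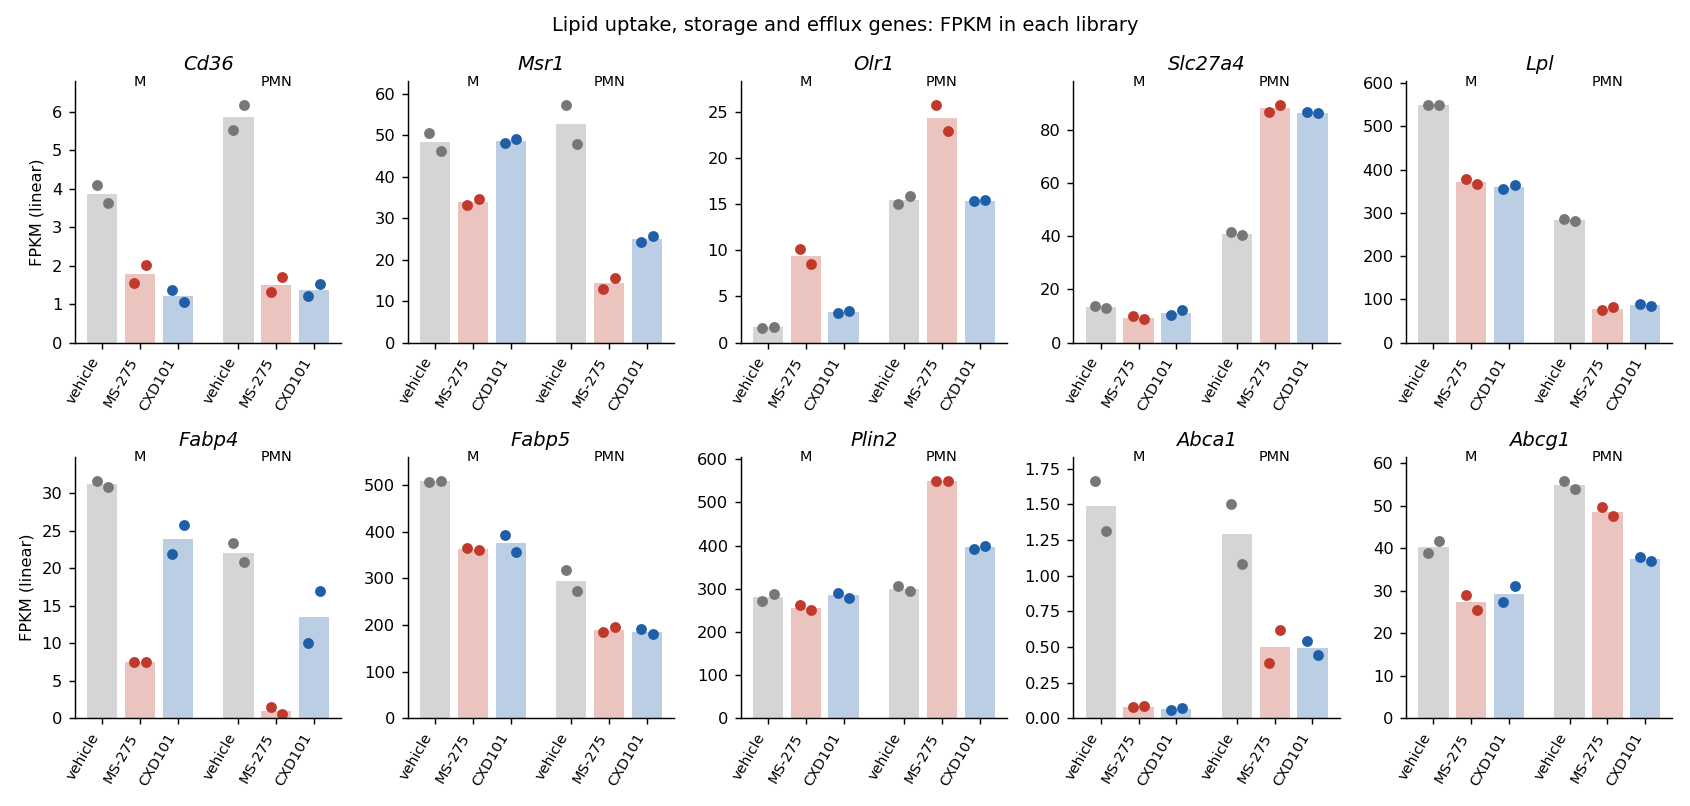
FPKM (linear axis from 0, a separate scale for each panel) of the 10 genes in each of the 12 libraries. Points are single libraries, bars are the mean of 2 libraries, and color marks the treatment, with M-MDSCs on the left and PMN-MDSCs on the right of each panel. Slc27a4 is at 86.2 to 89.3 FPKM in the PMN-MDSC drug groups, against 40.4 and 41.4 under vehicle, while its M-MDSC groups stay at 8.78 to 13.8.

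Each drug was then compared with vehicle within each subset, and the drugs with each other at the same dose. Both drug comparisons in a subset share the same vehicle libraries. A gene entered a fit at 1 FPKM or more in at least 2 of its libraries. Abca1 reached that under vehicle alone, so a fall was built into its entry. It is left out of the counts and medians in this and the next paragraph, a choice made after seeing the data. Later counts out of 10 genes include Abca1. Of the other 9 genes, MS-275 raised 1 in M-MDSCs, Olr1, and lowered 2, Fabp4 and Cd36, against 10.1% and 7.32% of all 11078 genes tested. With CXD101, Olr1 again rose and Cd36 and Lpl fell, where 5.14% of all genes were called higher and 3.0% lower. In either direction the calls covered 17.5% and 8.13% of all genes. The adjusted p alone was passed by 8 of the 9 genes under MS-275, where 46.4% of all genes passed, and by 6 under CXD101, where 23.1% did. The median log2 fold change of the 9 genes was -0.50 under MS-275 and -0.38 under CXD101, beside -0.06 and -0.02 over all genes tested.

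In PMN-MDSCs, MS-275 raised Slc27a4, Plin2 and Olr1 and lowered Fabp4, Lpl, Msr1, Cd36 and Fabp5, so that 3 of the 9 were higher and 5 lower, against 14.6% and 14.2% of the 11184 genes tested. CXD101 raised Slc27a4 and lowered Lpl, Cd36, Msr1 and Fabp5, against 11.9% called higher and 9.54% called lower over all genes. In either direction the calls covered 28.7% of all genes under MS-275 and 21.4% under CXD101. The adjusted p alone was passed by 8 and 7 of the 9 genes, where 53.7% and 45.3% of all genes passed. Medians of the 9 genes were -0.63 under MS-275 and -0.67 under CXD101, with -0.03 over all genes in both comparisons.

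These PMN-MDSC counts depend on the scale. S100a8 and S100a9, the calprotectin genes of neutrophils, took 10.2% and 13.7% of summed FPKM in the vehicle PMN-MDSC libraries and 27.3% to 30.9% in the drug libraries. Setting every library to the same sum moved the median gene by -0.35 under either drug. On that scale MS-275 raised 1 gene in place of 3 and lowered 6 with Abca1 counted, as on the deposited scale. Over all genes the split then changed from 1628 higher and 1586 lower to 993 and 3580 under MS-275, and from 1327 and 1067 to 782 and 3207 under CXD101. With those 2 genes left out of the sum, the median shift was -0.07 and -0.05.

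**Figure D2:**
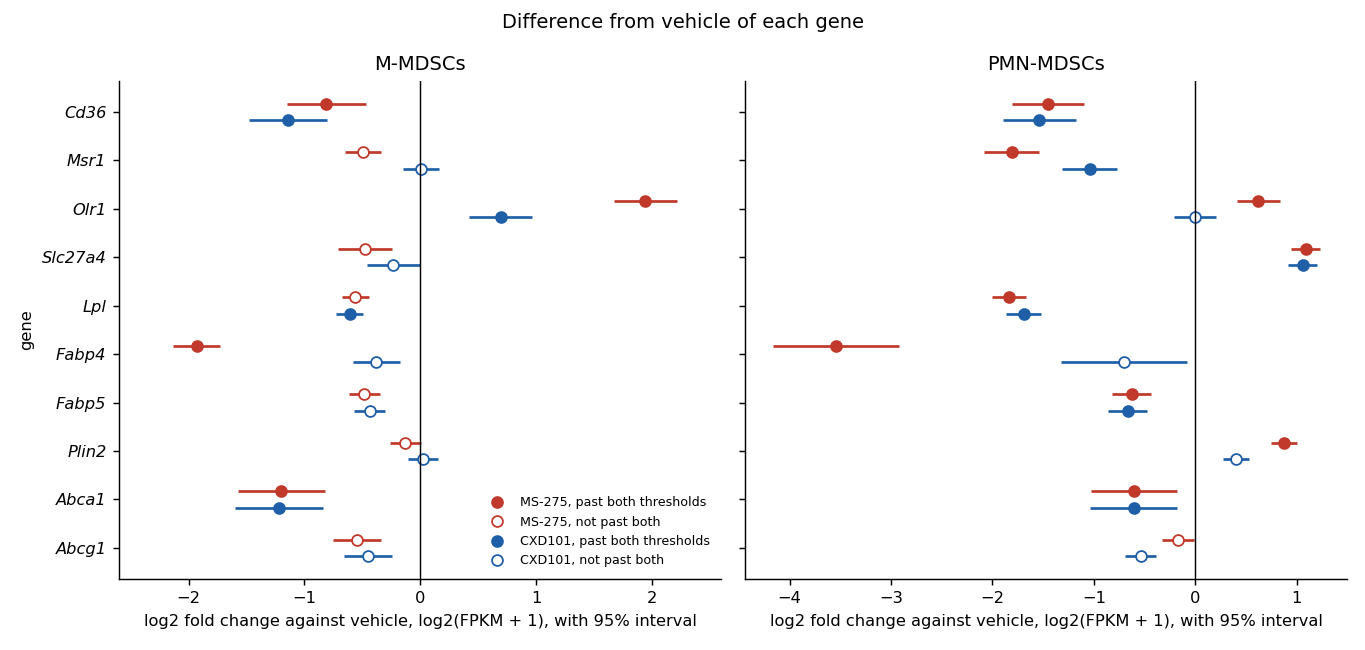
Log2 fold change against vehicle on the log2(FPKM + 1) scale for each gene (rows), in M-MDSCs on the left and PMN-MDSCs on the right, with the x axes differing in range. Red is MS-275, blue is CXD101, bars are 95% intervals from limma with 2 libraries per group, and filled points passed both thresholds. Fabp4 under MS-275 lies farthest to the left in both subsets, at -1.93 and -3.54.

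Cd36, a scavenger receptor that also takes up long-chain fatty acids, fell under both drugs in both subsets. M-MDSC libraries held 4.11 and 3.63 FPKM under vehicle, 1.55 and 2.01 under MS-275 and 1.37 and 1.05 under CXD101. Vehicle did not overlap with either drug, and the 2 drug groups did not overlap with each other. Limma gave log2 fold changes of -0.81 (SE 0.148, adjusted p = 0.00266) for MS-275 and -1.14 (SE 0.148, adjusted p = 0.00132) for CXD101. PMN-MDSC libraries went from 5.52 and 6.18 FPKM under vehicle to 1.31 and 1.71 under MS-275 and 1.20 and 1.52 under CXD101, where the drug groups overlapped. The corresponding limma values were -1.45 (SE 0.154, adjusted p = 0.000186) and -1.54 (SE 0.154, adjusted p = 0.000235). Over the 4 comparisons, mean FPKM under drug was between 0.233 and 0.461 of the vehicle mean.

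Msr1, the class A scavenger receptor for modified LDL, fell in PMN-MDSCs under both drugs. It stood there at 57.4 and 48.0 FPKM under vehicle, 13 and 15.6 under MS-275 and 24.4 and 25.7 under CXD101. The 3 groups did not overlap, and both drugs lowered it, with limma log2 fold changes of -1.81 (SE 0.116, adjusted p = 1.94e-05) and -1.04 (SE 0.116, adjusted p = 0.000373). In M-MDSCs the libraries held 50.7 and 46.3 FPKM under vehicle and 48.3 and 49.0 under CXD101, which lay inside the vehicle range, and 33.3 and 34.7 under MS-275, below both. The M-MDSC difference under MS-275 passed limma's adjusted p but not the fold threshold, at -0.50 (SE 0.068, adjusted p = 0.000622). Under CXD101 the interval of the M-MDSC difference was -0.15 to 0.16.

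Olr1 was the receptor that rose. M-MDSC libraries held 1.61 and 1.74 FPKM under vehicle, 10.1 and 8.54 under MS-275 and 3.23 and 3.43 under CXD101. The 3 groups were fully separate, with MS-275 at 5.57 times and CXD101 at 1.99 times the vehicle mean. Both differences were called by limma, at 1.94 (SE 0.118, adjusted p = 1.21e-05) and 0.70 (SE 0.118, adjusted p = 0.00466). The CXD101 call was lost under quantile normalization, where the log2 value was 0.58. In PMN-MDSCs, Olr1 stood at 15 and 15.8 FPKM under vehicle, 25.7 and 22.9 under MS-275 and 15.3 and 15.4 under CXD101. MS-275 lay above the other groups and CXD101 lay within the vehicle range. The MS-275 difference was called by limma at 0.62 (SE 0.09, adjusted p = 0.000831), and without MS-275 replicate 1 it was 0.54 and no longer called. With all libraries set to the same sum it was 0.29 and not called.

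Slc27a4 rose in PMN-MDSCs under both drugs. Its level went from 41.4 and 40.4 FPKM under vehicle to 86.7 and 89.3 under MS-275 and 86.6 and 86.2 under CXD101. Both drug groups lay far above vehicle, with log2 values in limma of 1.09 (SE 0.061, adjusted p = 1.13e-05) and 1.06 (SE 0.061, adjusted p = 1.97e-05). M-MDSC libraries held 13.8 and 13 FPKM under vehicle, 9.94 and 8.78 under MS-275 and 10.5 and 12.1 under CXD101, all below the PMN-MDSC vehicle level. There the MS-275 difference passed limma's adjusted p in the opposite direction, at -0.48 (SE 0.10, adjusted p = 0.00526), short of the fold threshold.

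Lpl, the lipase that frees fatty acids from triglyceride-rich lipoproteins, was lower in every drug library than in every vehicle library of its subset. In PMN-MDSCs the values were 286 and 281 FPKM under vehicle, 74.9 and 83.0 under MS-275 and 90.5 and 83.8 under CXD101. MS-275 was lowest, the drug groups did not quite overlap, and mean FPKM was 0.278 and 0.307 of vehicle, with limma log2 fold changes of -1.83 (SE 0.073, adjusted p = 3.08e-06) and -1.69 (SE 0.073, adjusted p = 6.05e-06). M-MDSC libraries held 549.8 and 549 FPKM under vehicle, 379 and 366 under MS-275 and 355 and 364 under CXD101. Here the CXD101 group was the lower of the drug groups. The limma values of -0.56 (SE 0.051, adjusted p = 7.77e-05) and -0.61 (SE 0.051, adjusted p = 0.000181) lie on either side of the fold threshold, so only CXD101 was called, and the interval of the difference between the drugs was -0.07 to 0.17. The CXD101 call was lost under quantile normalization, at -0.56.

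Fabp4, the fatty-acid-binding protein shared by adipocytes and macrophages, showed the largest difference between the drugs of the 10 genes. M-MDSC libraries held 31.7 and 30.8 FPKM under vehicle, 7.46 and 7.44 under MS-275 and 21.9 and 25.8 under CXD101. All 3 groups were separate and MS-275 was far below the others. Limma called the MS-275 difference, at -1.93 (SE 0.089, adjusted p = 3.8e-06), and not the CXD101 difference of -0.38 (SE 0.089, adjusted p = 0.0186), which missed the fold threshold. In PMN-MDSCs the values were 23.3 and 20.8 FPKM under vehicle, 1.49 and 0.565 under MS-275 and 10.1 and 16.9 under CXD101. MS-275 lay near 1 FPKM, with a limma log2 fold change of -3.54 (SE 0.268, adjusted p = 4.13e-05), while the 2 CXD101 libraries were far apart. The CXD101 value of -0.71 (SE 0.268, adjusted p = 0.0641) missed limma's adjusted p. It was called, at -1.05, without CXD101 replicate 2, likewise at -1.05 with all libraries set to the same sum, and at -0.71 where the spread was estimated from all 12 libraries or from the 4 compared.

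Fabp5, the epidermal fatty-acid-binding protein also found in macrophages, was lower in every drug library than in the vehicle libraries of its subset. Its M-MDSC libraries held 507 and 509.9 FPKM under vehicle, 366 and 361 under MS-275 and 394 and 358 under CXD101. PMN-MDSC libraries held 317 and 273, 185 and 196 and 191 and 180.0 FPKM in the same order. The drug groups overlapped in both. In PMN-MDSCs limma called both drugs, at -0.63 (SE 0.082, adjusted p = 0.000524) and -0.67 (SE 0.082, adjusted p = 0.000578), whereas the M-MDSC values of -0.48 (SE 0.06, adjusted p = 0.000384) and -0.44 (SE 0.06, adjusted p = 0.0017) passed limma's adjusted p alone. Without PMN-MDSC vehicle replicate 1 the PMN-MDSC values were -0.52 and -0.56 and neither was called.

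Plin2, the perilipin that coats lipid droplets in most cells, rose in PMN-MDSCs treated with MS-275. Its level was 306 and 294 FPKM under vehicle, 550.1 and 551 under MS-275 and 393 and 400.2 under CXD101. The 3 groups did not overlap and CXD101 lay between. Limma called MS-275, at 0.87 (SE 0.055, adjusted p = 1.78e-05), and CXD101 passed the adjusted p but not the fold threshold, at 0.40 (SE 0.055, adjusted p = 0.000941). With all libraries set to the same sum the MS-275 value was 0.52, still past the adjusted p and short of the fold threshold. M-MDSC libraries held 272 and 289 FPKM under vehicle, 263 and 250.2 under MS-275 and 291 and 279 under CXD101. No difference was called in M-MDSCs, and the intervals were -0.26 to 0.01 for MS-275 and -0.11 to 0.16 for CXD101.

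Abca1, which passes cholesterol to lipid-poor apolipoprotein A-I, was the least expressed of the 10 genes. In M-MDSCs it was at 1.67 and 1.31 FPKM under vehicle, 0.077 and 0.087 under MS-275 and 0.058 and 0.072 under CXD101. The drug libraries were close to 0, at 0.055 and 0.043 of the vehicle mean. Limma gave -1.20 (SE 0.165, adjusted p = 0.000645) for MS-275 and -1.22 (SE 0.165, adjusted p = 0.0016) for CXD101 on the log2(FPKM + 1) scale, and -3.12 and -3.26 with a pseudocount of 0.1. PMN-MDSC values were 1.5 and 1.08 FPKM under vehicle, 0.39 and 0.616 under MS-275 and 0.545 and 0.446 under CXD101. Both drug groups lay below vehicle and overlapped, and limma called both, at -0.60 (SE 0.183, adjusted p = 0.0247) and -0.61 (SE 0.183, adjusted p = 0.0287). Without MS-275 replicate 1 the first was -0.50 and not called, and without CXD101 replicate 1 or 2 the second was -0.66 or -0.56 and not called. These calls rest on its entry through vehicle libraries alone.

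Abcg1, which exports cholesterol to HDL, was not called in any of the 4 comparisons with vehicle. M-MDSC libraries held 38.8 and 41.7 FPKM under vehicle, 29.1 and 25.5 under MS-275 and 27.3 and 31.1 under CXD101. The drug groups overlapped each other and lay below vehicle, with limma values of -0.55 (SE 0.092, adjusted p = 0.00177) and -0.45 (SE 0.092, adjusted p = 0.01) that passed the adjusted p alone. Without vehicle replicate 1 or MS-275 replicate 1 the MS-275 value was -0.60 or -0.64 and was called. PMN-MDSC libraries held 55.9 and 54.0 FPKM under vehicle, 49.6 and 47.7 under MS-275 and 38.0 and 37.0 under CXD101. The 3 groups were separate, with CXD101 lowest, and the limma values were -0.17 (SE 0.067, adjusted p = 0.061) and -0.54 (SE 0.067, adjusted p = 0.000587). With all libraries set to the same sum the CXD101 value was -0.89 and was called.

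MS-275 and CXD101 were given at the same dose by weight and for the same time, and were compared directly in each subset over the 10 genes. The paper's supplement lists different potencies of the drugs against HDAC1, so equal weight need not mean equal inhibition. In M-MDSCs, 1 gene stood higher with MS-275 than with CXD101 and 1 lower, against 3.22% and 1.17% of all genes (4.4% in either direction), and 3 of the 10 passed the adjusted p alone (13.7% of all genes). Olr1 was higher, by a limma log2 difference of 1.25 (SE 0.118, adjusted p = 0.000943), and Fabp4 lower, by -1.55 (SE 0.089, adjusted p = 0.000196). Msr1 was lower under MS-275 with an adjusted p past the limma threshold and a size short of it, at -0.50 (SE 0.068, adjusted p = 0.00387). For the remaining 7 genes the log2 difference ran from -0.25 (Slc27a4) to 0.33 (Cd36) and missed limma's adjusted p. Their widest intervals were -0.36 to 0.40 for Abca1 and -0.01 to 0.67 for Cd36, and the narrowest was -0.07 to 0.17 for Lpl.

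In PMN-MDSCs, Olr1 was higher under MS-275, and Fabp4 and Msr1 were lower, where 0.465% and 0.34% of all genes were called higher and lower (0.805% in all). The adjusted p alone was passed by 4 of the 10 and by 1.17% of all genes. The limma log2 differences were 0.63 (SE 0.09, adjusted p = 0.0255) for Olr1, -2.84 (SE 0.268, adjusted p = 0.00852) for Fabp4 and -0.77 (SE 0.116, adjusted p = 0.0305) for Msr1. Leaving out any 1 of the 4 drug libraries ended the Olr1 and Msr1 calls, with limma adjusted p of 0.0885 to 0.193 and 0.0702 to 0.212, and without CXD101 replicate 2 the Fabp4 value was -2.49 with an adjusted p of 0.0523. Plin2 was higher under MS-275 past the adjusted p alone, at 0.47 (SE 0.055, adjusted p = 0.0214). The other 6 genes missed limma's adjusted p, and their intervals included -0.12 to 0.17 for Slc27a4, -0.31 to 0.03 for Lpl, -0.27 to 0.44 for Cd36 and -0.42 to 0.43 for Abca1.

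Whether a drug response differed between the subsets was tested as the difference of the log2 fold changes, PMN-MDSCs minus M-MDSCs, in 1 limma fit over the 12 libraries. For MS-275, 2 of the 10 genes had a higher and 5 a lower response in PMN-MDSCs, against 8.65% and 9.48% of 11662 genes (18.1% in either direction). The adjusted p alone was passed by 8 of the 10 and by 31.0% of all genes. Slc27a4 and Plin2 were higher, with limma differences of 1.56 (SE 0.113, adjusted p = 1.24e-05) and 1.0 (SE 0.075, adjusted p = 1.5e-05). Both rose in PMN-MDSCs and had negative values in M-MDSCs. Fabp4, Msr1 and Lpl had more negative responses in PMN-MDSCs, with limma differences of -1.61 (SE 0.324, adjusted p = 0.00409), -1.31 (SE 0.142, adjusted p = 0.000119) and -1.27 (SE 0.086, adjusted p = 8.62e-06). Olr1 rose less in PMN-MDSCs, by -1.32 (SE 0.139, adjusted p = 0.000104) in limma, and its vehicle level was higher there. The Cd36 difference of -0.64 (SE 0.206, adjusted p = 0.037) was close to limma's threshold and missed the adjusted p with a pseudocount of 0.1 (0.0743), with no filter on low values (0.0563), with a filter at 5 FPKM (0.0543), under quantile normalization (0.0632) and without any 1 of 6 of the 8 libraries (0.0537 to 0.132).

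For CXD101, 1 of the 10 genes had a higher and 3 had a lower response in PMN-MDSCs, against 7.31% and 6.59% of all genes (13.9% in either direction), and 5 passed the adjusted p alone, as did 24.2% of all genes. Slc27a4 was the gene with the higher response, by 1.29 (SE 0.113, adjusted p = 6.92e-05) in limma. Lpl, Msr1 and Olr1 were lower, by -1.08 (SE 0.086, adjusted p = 3.79e-05), -1.05 (SE 0.142, adjusted p = 0.000659) and -0.70 (SE 0.139, adjusted p = 0.00503) in limma. Abca1 had a less negative value in PMN-MDSCs under both drugs, at 0.59 (adjusted p = 0.0597) and 0.61 (adjusted p = 0.0625) by limma, which were not called. It entered this fit, too, through vehicle libraries alone. With a pseudocount of 0.1 the values were 1.91 and 2.05 and passed both thresholds, with M-MDSC drug libraries at 0.058 to 0.087 FPKM. Fabp5 did not pass for either drug, and its intervals were -0.38 to 0.09 for MS-275 and -0.46 to 0.01 for CXD101.

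**Figure D3:**
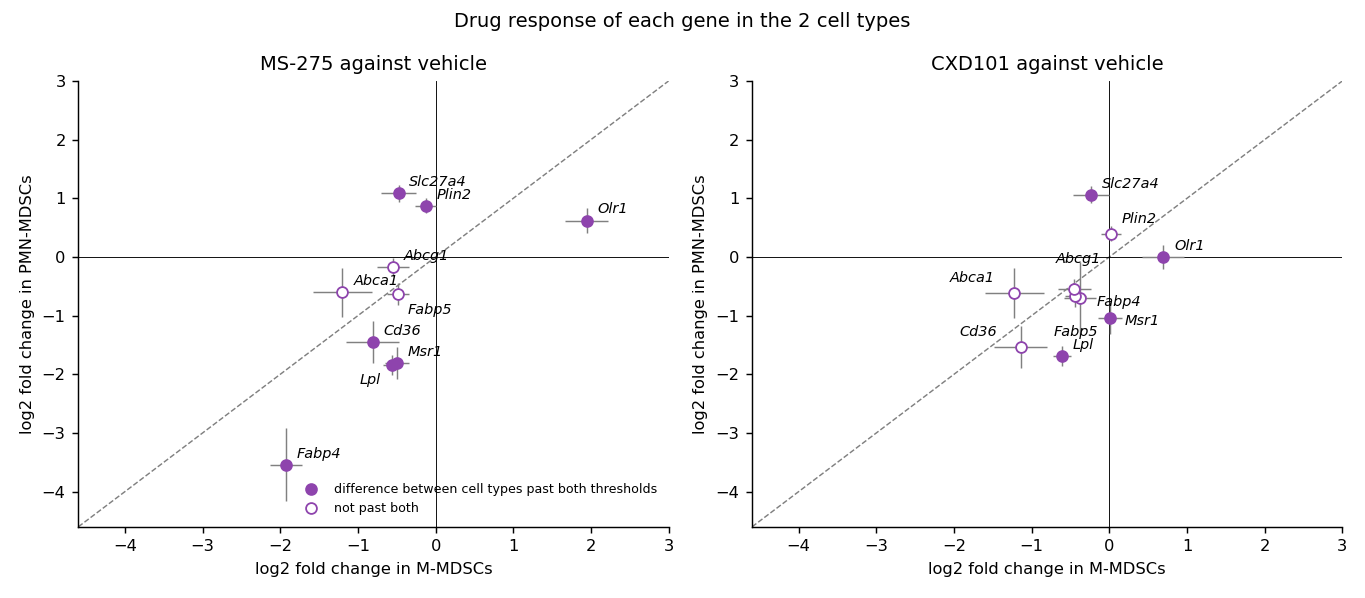
Log2 fold change against vehicle in M-MDSCs (x axis) and PMN-MDSCs (y axis) for each of the 10 genes, with MS-275 on the left and CXD101 on the right. Bars are 95% intervals, the dashed line marks equal responses, and filled points are genes whose difference between the subsets passed both thresholds. Slc27a4 lies above the line in both panels, and Msr1, Lpl and Olr1 lie below it.

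Markers of other cells moved with these results. The 14-gene macrophage list summed to 518 to 539 FPKM in vehicle M-MDSCs, 332 to 362 under MS-275 and 453 to 462 under CXD101. In PMN-MDSCs it summed to 721 to 792, then 408 to 440.4 and 444 to 461 FPKM. From 5 to 9 of the 14 genes were below 1 FPKM in both libraries of a group, and the tissue macrophage genes Clec4f and Timd4 were at 0 in all 6 groups. C1qb, a complement gene of mature macrophages, was at 15.5 and 14 FPKM in vehicle M-MDSCs, 0.501 and 0.76 under MS-275 and 4.63 and 3.59 under CXD101. In PMN-MDSCs it went from 23.7 and 18.8 to 0.608 and 0.288 and 3.93 and 1.79 FPKM. C1qb had the most negative fold change of the list in all 4 comparisons with vehicle. Limma called 6 of its 9 tested genes lower under MS-275 and 3 under CXD101 in M-MDSCs, and 7 under each drug in PMN-MDSCs. Over all genes, 7.32% under MS-275 and 3.0% under CXD101 were called lower in M-MDSCs, and 14.2% and 9.54% in PMN-MDSCs. The macrophage sums were thus lower in the drug groups, as were Cd36, Lpl, Fabp4 and Abca1 in both subsets and Msr1 in all but CXD101 M-MDSCs. Apoe went the other way, at 13.8 and 16.4 FPKM in vehicle PMN-MDSCs and 45.2 and 51.1 under MS-275. In M-MDSCs its limma values were 0.54 (adjusted p = 0.00658) and 0.51 (adjusted p = 0.0173), short of the fold threshold. Adgre1, which encodes the macrophage antigen F4/80, also had a positive value under MS-275 in M-MDSCs, at 0.47 (adjusted p = 0.00175) by limma, short of the fold threshold. The part of these markers in the results was not tested.

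The 11-gene neutrophil list had higher sums in the PMN-MDSC groups in which Slc27a4 and Plin2 were higher, with 70723 to 96466 FPKM under vehicle, 255070 to 278540 under MS-275 and 269340 to 295500 under CXD101. In M-MDSCs, where neither gene rose, it summed to 12113 to 12808 FPKM under vehicle and 24324 to 29318 under the drugs. S100a8 and S100a9 made up 82.9% to 95.6% of these sums in the 12 libraries. Limma called 9 of the 11 genes higher and none lower under each drug in PMN-MDSCs, and 7 higher under each in M-MDSCs. Over all genes, 14.6% under MS-275 and 11.9% under CXD101 were called higher in PMN-MDSCs, and 10.1% and 5.14% in M-MDSCs. The granule genes Ltf and Camp were called lower under MS-275 in M-MDSCs, at -1.47 (adjusted p = 8.55e-05) and -0.98 (adjusted p = 0.00698) by limma. The 8-gene monocyte list summed to 1991 to 2067 FPKM in vehicle M-MDSCs and 2694 to 3176 under the drugs, and to 1608 to 1615 and 2467 to 2725 in PMN-MDSCs. Ly6c2, the gene of a Ly-6C antigen used in the sort, held most of the sum outside vehicle PMN-MDSCs, and went from 1360.2 and 1306 FPKM in vehicle M-MDSCs to 2394 and 2447 under MS-275 and from 511 and 455 to 1487 and 1677 in PMN-MDSCs. Other genes of the list were called lower, Fcgr1 under both drugs in M-MDSCs and Csf1r and Cx3cr1 under both in PMN-MDSCs, with -1.75 (adjusted p = 3.71e-06) for Fcgr1 and -1.28 (adjusted p = 1.11e-05) for Csf1r under MS-275 by limma. Their part in the results was not tested.

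Lists of cells that also use Cd36 or Fabp4 were examined in the same way. Of 7 adipocyte genes, Adipoq and Lep were at 0 in every group, and the only gene above 1 FPKM in both libraries of a group was Retn. Of 7 endothelial genes, Pecam1, which myeloid cells share, was at 9.44 and 8.80 FPKM in vehicle M-MDSCs and 26.9 to 35.7 under the drugs, and at 16.0 and 16.5 and 51.0 to 58.0 in PMN-MDSCs, while Gpihbp1 was at 0 and Cdh5 at most 0.105 throughout. The platelet list of 6 genes summed to 11.1 to 11.7 FPKM in vehicle M-MDSCs and 26.4 to 51.7 under the drugs, the direction opposite to Cd36. In PMN-MDSCs it summed to 22.6 to 39.9 FPKM under vehicle and 44.9 to 69.8 under the drugs. Of the 10 hepatocyte and hepatoma genes, Apob, Ttr, Fgb, Serpina1a and Ahsg were at 0 in every group and Trf made up nearly all of the sum, which was 61.6 to 64.7 FPKM under vehicle and 41.7 to 51.6 under the drugs in M-MDSCs, and 157 to 163 and 233 to 272 in PMN-MDSCs. The 7 dendritic cell genes had lower sums under the drugs, the direction of Cd36 and Lpl, with 4.37 to 5.27 FPKM under vehicle and 0.895 to 2.38 under the drugs in M-MDSCs, and 13.8 to 18.3 and 3.95 to 6.03 in PMN-MDSCs. The 8 eosinophil genes summed to 160.4 to 197 FPKM in vehicle M-MDSCs and 377 to 418 under the drugs, where Prg2, a granule protein gene, was called higher by limma at 3.72 (adjusted p = 4.19e-06) under MS-275 and 3.40 (adjusted p = 2.34e-05) under CXD101. In PMN-MDSCs they summed to 341 to 377 and 383 to 491. Erythroid genes (6) summed to at most 0.873 and lymphocyte and NK cell genes (7) to at most 3.16 over the groups. Their part in the results was not tested either.

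**Figure D4:**
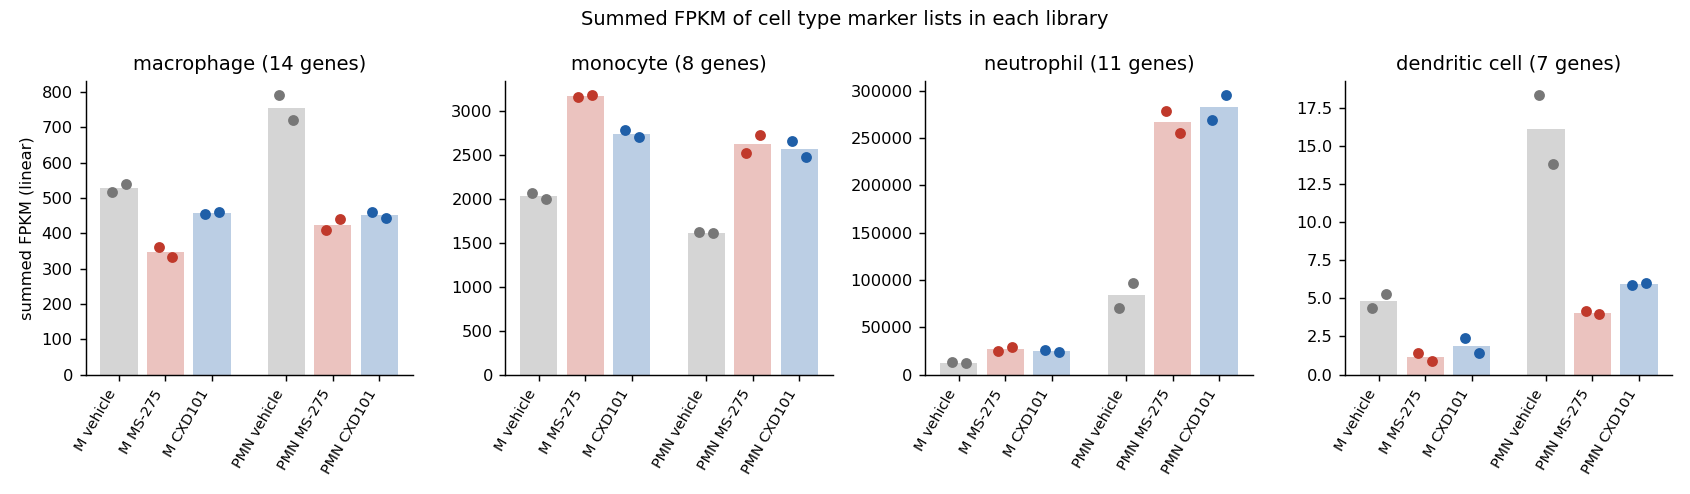
Summed FPKM (linear axis from 0, a separate scale for each panel) of the macrophage, monocyte, neutrophil and dendritic cell marker lists in each of the 12 libraries. Points are single libraries and bars the mean of 2. Macrophage sums are highest under vehicle in both subsets, and neutrophil sums in PMN-MDSCs reach 255070 to 295500 under the drugs.

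The wider lipid pathway was read from 7 lists holding 120 other genes, of which 87 were tested in M-MDSCs and 89 in PMN-MDSCs. These lists, too, were chosen with earlier results of these data known. In M-MDSCs, MS-275 raised 7 (8.05%) and lowered 13 (14.9%) of them, beside 10.1% and 7.32% of all genes tested. CXD101 raised 9 (10.3%) and lowered 3 (3.45%), beside 5.14% and 3.0%. In PMN-MDSCs, MS-275 raised 20 (22.5%) and lowered 18 (20.2%), beside 14.6% and 14.2%, and CXD101 raised 17 (19.1%) and lowered 12 (13.5%), beside 11.9% and 9.54%. From 2 to 5 of the called genes in a comparison (Fabp3, Fabp7, Mfsd2a, Plin5, Pltp, Nr1d2 or Ppargc1b) reached 1 FPKM in 2 libraries only on the side where they were high, which counts toward their calls. Without them the counts were 6 higher and 12 lower, 8 and 2, 18 and 15, and 15 and 10 in the same order, a count added after seeing the data. With all libraries set to the same sum, the PMN-MDSC counts were 10 higher and 38 lower under MS-275 and 7 and 33 under CXD101.

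Many other scavenger and lipoprotein receptors fell, except under CXD101 in M-MDSCs. MS-275 lowered 5 of the 9 tested in M-MDSCs (Mrc1, Marco, Trem2 and Stab1 among them) and 7 of 10 in PMN-MDSCs (Mrc1, Marco, Trem2, Stab1, Cd68 and Cxcl16 among them), and raised none, where 7.32% and 14.2% of all genes were lower. Their median log2 fold changes were -0.69 and -0.86. Mrc1, the mannose receptor, went from 79.9 and 81.3 to 16.4 and 13.5 FPKM in M-MDSCs, a limma log2 fold change of -2.36 (adjusted p = 3.5e-06). In PMN-MDSCs it went from 50.6 and 48.0 FPKM to 3.32 and 2.96. CXD101 lowered 5 of 10 in PMN-MDSCs (Stab1, Trem2, Mrc1, Cxcl16 and Cd68) where 9.54% of all genes were lower, and none of 9 in M-MDSCs. There it raised Marco, a bacterial and lipoprotein scavenger receptor, from 8.97 and 11.4 to 18 and 25.0 FPKM, whereas MS-275 libraries held 5.17 and 5.19. Marco had limma log2 values of 1.0 (adjusted p = 0.00314) and -0.84 (adjusted p = 0.00289). Mrc1, Trem2 and Cd68 are also on the macrophage list.

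Genes of fatty acid transport and activation moved both ways. Of 8 tested, 1 rose and 2 fell under MS-275 in M-MDSCs, 2 rose and 2 fell under CXD101, and in PMN-MDSCs 3 rose and 4 fell under MS-275 and 2 rose and 2 fell under CXD101. All genes called in either direction under MS-275 and CXD101 came to 17.5% and 8.13% in M-MDSCs and 28.7% and 21.4% in PMN-MDSCs. Among the called genes, Fabp3 in every comparison and Fabp7 under CXD101 in M-MDSCs reached 1 FPKM in 2 libraries only where they were high. Mfsd2a, a transporter of lysophosphatidylcholine, rose in all 4 comparisons, from 0.808 and 1.07 FPKM in vehicle PMN-MDSCs to 16.9 and 15.1 under MS-275 and 13.4 and 13.1 under CXD101. It needed the drug libraries to enter the PMN-MDSC fit, since 1 vehicle library was below 1 FPKM, so a rise there was built into its entry. Acsl1, which activates long-chain fatty acids, rose in PMN-MDSCs from 43.4 and 44.8 to 78.4 and 74.6 FPKM under MS-275, a limma log2 fold change of 0.78 (adjusted p = 6.16e-05). Acsl3, an acyl-CoA synthetase of growing droplets, went in M-MDSCs from 8.86 and 9.40 to 5.73 and 5.49 FPKM under MS-275, a limma value of -0.62 (adjusted p = 0.00108).

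Among lipases and their regulators, Lipg, an endothelial lipase related to Lpl, moved opposite to Lpl. It rose from 27.5 and 21.9 FPKM in vehicle M-MDSCs to 96.4 and 100.4 under MS-275 and 76.6 and 78.3 under CXD101. In PMN-MDSCs it rose from 38.2 and 42.7 to 318 and 318 and 284 and 281 FPKM. By limma the log2 changes came to 1.96 (adjusted p = 4.7e-06) and 1.62 (adjusted p = 4.32e-05) in M-MDSCs and 2.95 (adjusted p = 4.18e-07) and 2.78 (adjusted p = 5.47e-07) in PMN-MDSCs. The list as a whole had 2 to 4 genes higher and 1 lower in each comparison, out of 15 tested in M-MDSCs and 14 in PMN-MDSCs. Shares of all genes called higher under MS-275 and CXD101 were 10.1% and 5.14% in M-MDSCs and 14.6% and 11.9% in PMN-MDSCs. Shares called lower were 7.32% and 3.0% in M-MDSCs and 14.2% and 9.54% in PMN-MDSCs. Lipa, the lysosomal acid lipase, was the gene called lower in PMN-MDSCs under both drugs, and Lpcat2, which remakes phosphatidylcholine, in M-MDSCs.

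Lipid droplet and esterification genes were called in 1 direction, higher, on the scale as deposited; single lists were not counted on the other scales. With Plin2 not counted, 2 of 14 tested rose in M-MDSCs under each drug (Dgat2 and Cideb), and 6 of 15 rose in PMN-MDSCs under MS-275 (Dgat2, Dgat1, Cideb, Plin5, Agpat2 and Agpat9) and 5 under CXD101 (Dgat2, Dgat1, Cideb, Agpat2 and Plin5). Over all genes, 10.1% under MS-275 and 5.14% under CXD101 were higher in M-MDSCs, against 14.3% of the list in both, and 14.6% and 11.9% in PMN-MDSCs, against 33.3% under CXD101 for the list. Plin5 entered the PMN-MDSC fit through drug libraries alone. Dgat2, which completes triglyceride synthesis, went from 28.1 and 27.6 to 142 and 148 FPKM under MS-275 and 114 and 114 under CXD101 in PMN-MDSCs. In M-MDSCs it went from 23.5 and 23.2 to 75.9 and 73.5 and 44.6 and 40.2 FPKM. In limma, the log2 values came to 2.34 (adjusted p = 5.74e-07) and 1.99 (adjusted p = 1.56e-06) in PMN-MDSCs and 1.64 (adjusted p = 2.61e-06) and 0.83 (adjusted p = 0.000189) in M-MDSCs. Dgat1, the other such enzyme, went from 68.9 and 66.3 to 194 and 214 FPKM in MS-275 PMN-MDSCs and was not called in M-MDSCs.

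Sterol efflux and lysosomal export genes other than Abca1 and Abcg1 moved both ways. Under MS-275, 2 rose and 3 fell of 13 tested in M-MDSCs, where 17.5% of all genes were called, and 3 rose and 2 fell of 14 in PMN-MDSCs, where 28.7% were. CXD101 raised 1 and lowered none in M-MDSCs and raised 1 and lowered 1 in PMN-MDSCs, beside 8.13% and 21.4% of all genes. Npc1, which moves cholesterol out of lysosomes, fell in PMN-MDSCs from 67.0 and 68.1 to 34.1 and 32.6 FPKM under MS-275 and 36.3 and 35.7 under CXD101, by -1.0 (adjusted p = 2.37e-05) and -0.89 (adjusted p = 6.22e-05) in limma. Abca7, another ABC lipid transporter, rose there from 40.5 and 38.0 to 66.3 and 75.5 and 65.3 and 60.2 FPKM. Cyp27a1, which makes an oxysterol, rose in M-MDSCs from 1.13 and 1.06 to 6.13 and 5.68 FPKM under MS-275.

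Of 11 tested nuclear receptors and coactivators of lipid handling, MS-275 lowered 2 in M-MDSCs (Rxra and Nr1d2) and 3 in PMN-MDSCs (Nr1h3, Ppargc1b and Nr1d2), where 7.32% and 14.2% of all genes were lower. Ppargc1b and Nr1d2 entered the PMN-MDSC fit through vehicle libraries alone. CXD101 changed none in M-MDSCs by both limma thresholds. There 5 had an unadjusted p under 0.05 and 4 passed the adjusted p, as did 23.1% of all genes. In PMN-MDSCs CXD101 raised Pparg, the fatty acid sensor, and lowered Nr1d2. Pparg was at 23.0 and 25.0 FPKM in vehicle PMN-MDSCs and 37.7 and 39.2 under CXD101, a limma log2 fold change of 0.66 (adjusted p = 0.000459). Its limma difference there between the drugs, MS-275 minus CXD101, was -0.08 (adjusted p = 0.70), with an interval of -0.26 to 0.10. Rxra, the shared partner of these receptors, went from 15.7 and 17.4 to 8.40 and 7.36 FPKM in MS-275 M-MDSCs, by -0.99 (adjusted p = 0.000115) in limma. Under CXD101 in M-MDSCs, Rxra passed limma's adjusted p but not the fold threshold, at -0.43 (adjusted p = 0.0151). Fatty acid oxidation genes had no calls in M-MDSCs under either drug (0 of 17 by limma). The adjusted p alone was passed by 7 of the 17 under MS-275 and 2 under CXD101, where 46.4% and 23.1% of all genes passed. An unadjusted p under 0.05 was reached by 7 and 5. In PMN-MDSCs 4 rose and 1 fell under MS-275, and 4 rose and 2 fell under CXD101. The share of all genes called there, 28.7% and 21.4%, is close to 5 of 17 under MS-275 and below 6 of 17 under CXD101. Acadvl, which starts the oxidation of very long chains, went from 25.8 and 26.7 to 43.0 and 46.4 FPKM in CXD101 PMN-MDSCs.

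**Figure D5:**
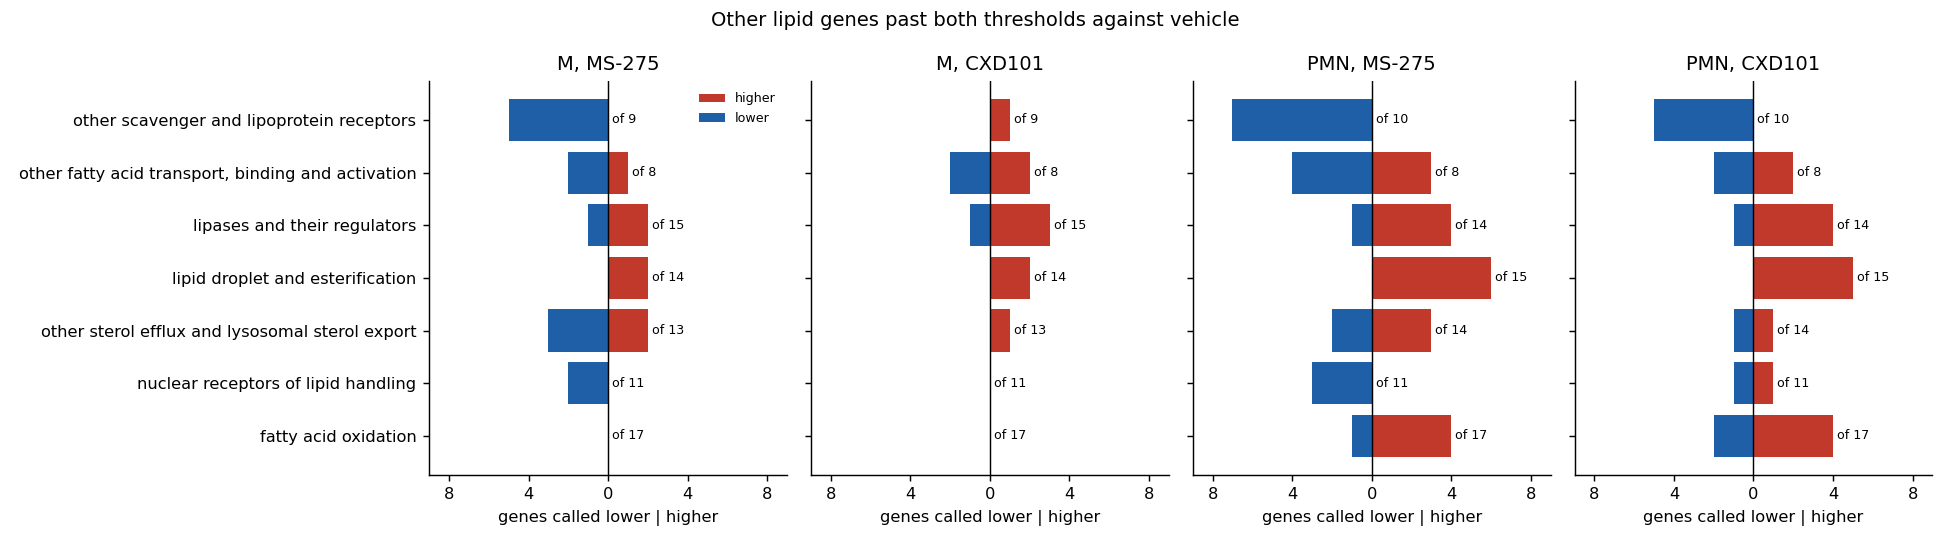
Number of genes called lower (blue, to the left) and higher (red, to the right) against vehicle in each of the 7 lipid lists, with the number tested beside each bar. Panels are the 4 comparisons of a drug with vehicle. Scavenger and lipoprotein receptors called lower are 5 of 9 in M-MDSCs under MS-275, and 7 and 5 of 10 in PMN-MDSCs under MS-275 and CXD101. None is lower under CXD101 in M-MDSCs, and droplet and esterification genes are higher where called.

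The patterns of the 10 genes over the 12 libraries were compared by Pearson's r of log2(FPKM + 1), as a description, since libraries of a group and of a subset share much of their expression. Lpl and Fabp5 were the closest pair (r = 0.976), and Msr1 and Fabp4 were next among positive values (r = 0.900). Lpl opposed Slc27a4 (r = -0.911) and Plin2 (r = -0.911) over the 12 libraries. Within the 6 M-MDSC libraries, however, r of Lpl was 0.783 with Slc27a4 and 0.267 with Plin2, and within the 6 PMN-MDSC libraries it was -0.995 and -0.874. Abca1 and Lpl had r of 0.991 within M-MDSCs and 0.953 within PMN-MDSCs, and 0.153 over all 12.

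Of 9228 other genes at 5 FPKM or more in at least 2 libraries, the 2 with the highest r over the 12 libraries were taken for each gene, and are given for all but Lpl. For the uptake genes these were Aldh1a2 (0.956) and Mmp12 (0.954) for Cd36, Rps19bp1 (0.986) and Cd302 (0.979) for Msr1 and Arsg (0.990) and Dtx4 (0.989) for Olr1. Slc27a4 was nearest to Anxa11 (0.998) and Mxi1 (0.996). The binding proteins were nearest to Mrc1 (0.979) and Tma7 (0.940) for Fabp4 and to Eif5a (0.994) and Pgk1 (0.993) for Fabp5. Plin2 was nearest to Adnp2 (0.971) and Kdm6a (0.968). Among the transporters, Abca1 was nearest to Adam9 (0.953) and Slc2a1 (0.946), and Abcg1 to Ccdc71l (0.971) and Adora2b (0.968).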

How the data were processed

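RNA of sorted M-MDSCs and PMN-MDSCs (12 libraries, 2 in each of 6 groups) was sequenced from stranded mRNA libraries as single reads of 101 bases. The deposited values are FPKM per gene symbol, made by the authors. The submitters' processing notes name TopHat2 2.1.1, Bowtie2 2.2.8, SAMtools 0.1.18, Cuffdiff 2.2.1 and the mm10 build; the annotation and strand setting used in counting are not given in the sources used here. Groups were taken from the sample labels.

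From these values, log2(FPKM + 1) was tested with limma 3.58.1 in R 4.3.3 (empirical Bayes with an intensity trend, Benjamini-Hochberg adjustment over all genes tested). Genes needed at least 1 FPKM in at least 2 of the fitted libraries. Comparisons within a subset used its 6 libraries, and comparisons across subsets used all 12. A gene was called at an adjusted p under 0.05 and a fold change above 1.5. The code was tested on simulated data. FPKM are not counts, so depth was only approximated, by how far apart the lowest values lie. Alternatives covered the pseudocount, filter, scaling, libraries fitted, variance model, threshold, replicate block and leaving out each library. MS-275 and CXD101 were compared as 1 pair in each subset.

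The 10 genes and all lists were chosen with earlier results of these data known. Named beside the 10 genes were, per lipid list and drug comparison, up to 2 called genes by size of change with a mean of at least 5 FPKM in the higher group, the 2 genes most correlated with each of the 10, and marker genes whose list moved with a result; a few genes this rule or a list holds are not reported here. Start-site windows came from RefSeq (GRCm38.p6) and gene positions from GENCODE vM21.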

Additional observations from a re-analysis of the deposited data

Results flagged for a closer look

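For 11 pairs of gene and drug, the response differed between PMN-MDSCs and M-MDSCs by limma's test of the difference itself, with both thresholds passed. Values are log2 differences, PMN-MDSC response minus M-MDSC response, with 2 libraries per group. Under MS-275 the response was higher in PMN-MDSCs for Slc27a4 (1.56) and Plin2 (1.0). It was lower for Fabp4 (-1.61), Olr1 (-1.32), Msr1 (-1.31), Lpl (-1.27) and Cd36 (-0.64). Under CXD101 it was higher for Slc27a4 (1.29) and lower for Lpl (-1.08), Msr1 (-1.05) and Olr1 (-0.70). Both drugs were compared with the same vehicle libraries.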

How the results depend on the processing

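With 2 libraries per group, calls near a threshold were the ones that moved. Over all values computed, 30 changed sign, 53 lost and 18 gained a call, and 1367 kept direction and side of the threshold; leave-one-out counts are included, the cause was not tested, and no depth interval could be given for FPKM. The lipid list values with the block were added after seeing the data.

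Of the 10 genes, Abca1 counted, a filter at 5 FPKM, which removes low genes from the test, left 1 lower under each drug in M-MDSCs in place of 3. A fold change above 2 left 0 higher under CXD101 in M-MDSCs, in PMN-MDSCs 3 lower with CXD101 and 1 higher with MS-275, there also 0 higher and 1 lower between the drugs, 0 lower in PMN-MDSCs against M-MDSCs, and 1 higher in the MS-275 response difference. Quantile normalization left 0 higher under CXD101 in M-MDSCs, and setting libraries to the same sum left 1 higher under MS-275 in PMN-MDSCs. Between the drugs in PMN-MDSCs, no filter left 0 higher and 0 lower, and dropping the intensity trend 0 and 1. The CXD101 response difference had 2 higher in place of 1 with a pseudocount of 0.1, no filter, either rescaling to the same sum, or no trend. Leaving out 1 library gave 3 to 5 lower under CXD101 in PMN-MDSCs, and 0 higher and 0 to 1 lower between the drugs there.

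Of the lipid lists, both rescalings gave 11 higher under MS-275 in M-MDSCs in place of 7. Rescaling to the same sum gave 10 higher and 38 lower under MS-275, and 7 and 33 under CXD101, in PMN-MDSCs, and the filter at 5 FPKM gave 11 lower under MS-275. Between the drugs in PMN-MDSCs, 2 higher became 1 with a pseudocount of 0.1, median-of-ratios scaling, quantile normalization or rescaling without S100a8 and S100a9, and no filter gave 0 higher and 1 lower in place of 4.

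Same-numbered libraries did not deviate together (correlations of -0.126 to 0.179). The labels do not pair them, and these correlations cannot tell whether they came from the same mice. With the replicate block, the drugs in PMN-MDSCs differed for 0 higher and 1 lower of the 10 genes and for 1 higher lipid list gene; over all genes the lower calls went from 38 to 25.

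Over all genes, a fold change above 2 cut every count by over 1.5 times, for example from 1123 higher and 811 lower to 526 and 194 under MS-275 in M-MDSCs. Between the drugs in PMN-MDSCs, 52 higher and 38 lower became 3 and 1 with no filter, 23 and 12 without the trend and 85 and 66 with all 12 libraries in 1 model. Rescaling to the same sum changed the response differences from 1009 higher and 1106 lower to 379 and 3099 for MS-275 and from 852 and 768 to 373 and 2554 for CXD101.

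The values that changed sign were all uncalled. Under quantile normalization these were Plin2 under MS-275 in M-MDSCs (0.0036), Fabp5 between the drugs in M-MDSCs (0.031), Olr1 under CXD101 in PMN-MDSCs (0.040) and Plin2 between the subsets (-0.029). Median-of-ratios scaling gave 0.012 for that Olr1 value. Rescaling to the same sum gave 0.00043 for that Fabp5 value, -0.064 for Msr1 and -0.083 for Plin2 between the subsets and -0.0063 for Abcg1 in the MS-275 response difference. Rescaling without S100a8 and S100a9 gave 0.0057 for Fabp5 between the drugs in M-MDSCs, and -0.0091 for Abca1 and -0.00013 for Slc27a4 between the drugs in PMN-MDSCs. The smaller pseudocount gave -0.0030 for that Abca1 value. Leaving out 1 library at a time gave ranges that crossed 0. Under CXD101 in M-MDSCs these were -0.057 to 0.070 for Msr1 (below 0 without vehicle or CXD101 replicate 2, the latter at -0.0052) and -0.019 to 0.065 for Plin2 (-0.0076 without CXD101 replicate 1), and between the drugs there -0.115 to 0.025 for Fabp5. In PMN-MDSCs the range was -0.039 to 0.030 for Olr1 under CXD101 (0.00065 without CXD101 replicate 1). Between the drugs it was -0.031 to 0.198 for Cd36, -0.0064 to 0.079 for Fabp5 and -0.105 to 0.113 for Abca1, with -0.014, -0.0056 and -0.044 as their other negative values. Between the subsets it was -0.011 to 0.240 for Msr1 and -0.255 to 0.0088 for Abca1, and in the CXD101 response difference -0.674 to 0.020 for Fabp4 and -0.179 to 0.0019 for Abcg1.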
